A study of Bos taurus with 20 samples.

Results

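PPARGC1A, its receptor partners PPARA, PPARD and ESRRA, and the nuclear factors NRF1 and TFAM were followed in the long back muscle of cattle. A gene was included through every probe set annotated to its symbol alone. This gave 10 of 24016 probe sets, for 4 of the 6 genes, where all arrays together covered 9155 genes with a symbol of their own. PPARGC1A had 4 probe sets, PPARA 2, PPARD 3 and NRF1 1. ESRRA and TFAM had 0 annotated probe sets and were not analysed here.

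The muscle, Musculus longissimus dorsi, came from 20 bulls of the second generation of a Holstein by Charolais cross, with 1 cattle GeneChip array per bull. Of the title numbers, 10 carried the letter S, whose meaning the labels do not give, and the others are called plain here. The groups were 5 high intramuscular fat (IMF) S bulls, 5 low IMF S bulls, 5 high IMF plain bulls and 5 low IMF plain bulls. All bulls shared the cross and the tissue, no treatment or age is given in the labels, and replicates 6 to 10 of each IMF group are the S bulls.

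PPARGC1A encodes PGC-1alpha, a coactivator that binds no DNA itself and is brought to genes by transcription factors. In mammalian muscle it works with the fatty acid receptors PPARA and PPARD, with ESRRA and with NRF1. Together they act on genes of mitochondrial respiration and fatty acid oxidation. PGC-1alpha also raises TFAM, which binds mitochondrial DNA and takes part in its transcription. The coactivator is known for its link to oxidative, slow-twitch fibres, and its activity is set by energy-sensing and calcium-dependent kinases.

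The arrays had median intensities between 51.6 and 67.6. The 7 measured skeletal muscle markers had summed intensities of 93665 to 109107 in S bulls and 96070 to 101444 in plain bulls. The 9 hybridisation spikes, controls of the hybridisation step, averaged 10.15 ± 0.21 log2 units in S bulls and 10.78 ± 0.07 in plain bulls (SD, n = 10 each). They were lower in S bulls on 9 of 9 probe sets. The 12 poly-A spikes, added before labelling, averaged 8.74 ± 0.17 in S bulls and 8.55 ± 0.26 in plain bulls, with 5 of 12 lower in S bulls. The log2 ratio of the 3′ to the 5′ probe set was -0.40 ± 0.16 in S bulls and -0.20 ± 0.13 in plain bulls for actin, and -0.38 ± 0.06 in S bulls and -0.34 ± 0.07 in plain bulls for GAPDH. High IMF replicates 6 and 9, both S bulls, had the lowest median intensities, 51.6 and 56.6. Albumin, a liver transcript, exceeded an intensity of 2000 in 4 arrays, high IMF replicates 6, 8 and 10 and low IMF replicate 3. The part of these differences in the results was not tested.

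PPARGC1A was lower in S bulls than in plain bulls, and within the S bulls it was lower with high IMF. The gene was chosen by these measured values, its level and its IMF difference in the title series, so they are described without a test. On its brightest probe set, Bt.5814.1.A1_at, the high IMF S bulls had intensities of 29.1, 78.9, 57.5, 34.8 and 59.1, and the low IMF S bulls had 63.4, 83.3, 81.3, 111 and 120.1. The high IMF plain bulls had 137, 146, 180.0, 206 and 101, and the low IMF plain bulls had 151, 73.3, 151, 182 and 239. High and low IMF overlapped in both title series, but 4 of the 5 high IMF S bulls lay below every low IMF S bull. Across the series, 8 of the 10 plain bulls lay above the highest S bull and 5 of the 10 S bulls lay below the lowest plain bull.

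On the log2(intensity + 1) scale used for all further values, this probe set averaged 5.63 ± 0.58 in high IMF S bulls, 6.50 ± 0.37 in low IMF S bulls, 7.24 ± 0.39 in high IMF plain bulls and 7.23 ± 0.63 in low IMF plain bulls (SD, n = 5 each). The 2 plain groups were apart by far less than their spread, while both S groups lay below them. The S minus plain difference was -1.16 (SE 0.23), a fold of 0.446. The high minus low IMF difference was -0.87 (SE 0.32) within S bulls, a fold of 0.549, and 0.01 within plain bulls. The IMF difference within S bulls was -0.47 without the 2 arrays of lowest median intensity and -0.76 without the 4 arrays with albumin above 2000. Leaving out 1 bull at a time, it ranged from -1.04 to -0.68. In bulk tissue, fewer cells of a type and less RNA per cell cannot be told apart.

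**Figure D1:**
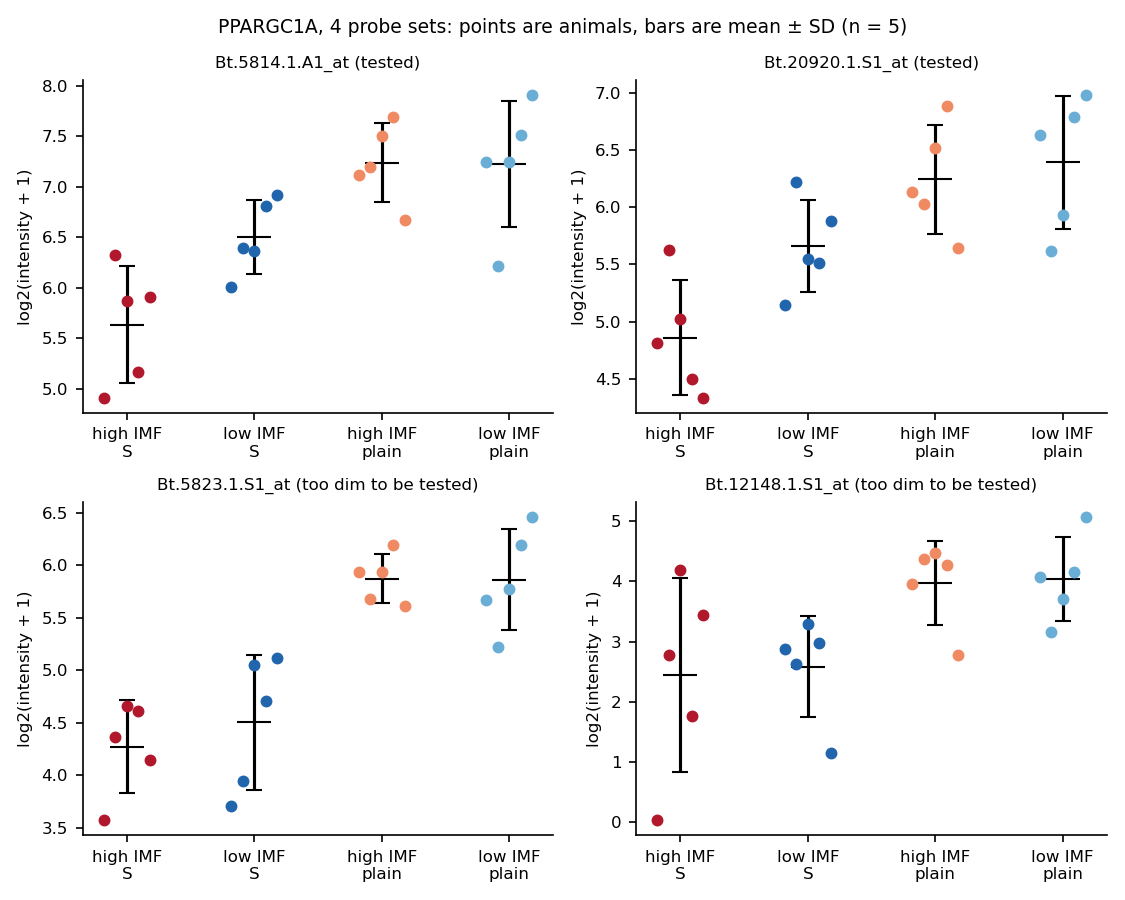
Log2(intensity + 1) of the 4 PPARGC1A probe sets in each bull, by IMF group and title series. Points are bulls and the bars are the group mean and SD (n = 5); all 4 probe sets had a lower mean in S bulls than in plain bulls.

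The other PPARGC1A probe sets were dimmer. Bt.20920.1.S1_at had intensities of 27.0, 48.3, 31.5, 21.6 and 19.2 in high IMF S bulls and 34.4, 73.5, 45.9, 44.5 and 57.8 in low IMF S bulls. It had 69.3, 64.4, 90.8, 117 and 49.1 in high IMF plain bulls and 98.4, 48.2, 60.2, 109 and 125 in low IMF plain bulls. The groups overlapped, and again 4 of the 5 high IMF S bulls lay below every low IMF S bull. Its S minus plain difference was -1.06, and its IMF difference was -0.80 within S bulls and -0.15 within plain bulls.

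Bt.5823.1.S1_at and Bt.12148.1.S1_at fell among the dimmest 40% of probe sets, which were not tested. For Bt.5823.1.S1_at all 10 S bulls lay below all 10 plain bulls, with the highest S bull at 33.8 and the lowest plain bull at 36.4, and the S minus plain difference was -1.48. Its IMF difference was -0.23 within S bulls and 0.01 within plain bulls. The value within S bulls was -0.43 without low IMF replicate 6 and -0.06 without high IMF replicate 6, and that within plain bulls ran from -0.15 to 0.16 with 1 bull left out. Bt.12148.1.S1_at had an S minus plain difference of -1.49, and its IMF difference was -0.14 within S bulls and -0.06 within plain bulls. Without high IMF replicates 6 and 9 the value within S bulls was 0.88, without high IMF replicate 6 alone it was 0.46 and without high IMF replicate 8 it was -0.58, and replicate 6 had an intensity of 0.03 on this probe set. The lower level in S bulls was thus seen on all 4 probe sets, and the IMF difference within S bulls was larger than 0.5 log2 units in size on the 2 brighter ones alone.

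The 4 PPARGC1A probe sets were compared in how single bulls deviated from the mean of their group, a measure that the group differences do not enter. Bt.5814.1.A1_at moved with Bt.20920.1.S1_at (Pearson r = 0.72, permutation within groups, p adjusted over 6 pairs 0.00579), with Bt.5823.1.S1_at (r = 0.68, adjusted permutation p = 0.00579) and with Bt.12148.1.S1_at (r = 0.57, adjusted permutation p = 0.0395). Spearman's rho was 0.66, 0.62 and 0.49 for these pairs, with adjusted permutation p of 0.0252, 0.0267 and 0.100. Without the 2 bulls farthest from the median, high IMF replicate 6 and low IMF replicate 2, r was 0.72, 0.51 and 0.35, with unadjusted permutation p of 0.00436, 0.0372 and 0.236. The relation with Bt.12148.1.S1_at did not hold without those bulls. The other 3 pairs had r of 0.27 to 0.43 and did not pass. Within plain bulls r was 0.91, 0.92 and 0.87 for the pairs with Bt.5814.1.A1_at, and 0.76 to 0.86 for the other 3 pairs. Within S bulls r was lower, at 0.49, 0.54 and 0.45 for the pairs with Bt.5814.1.A1_at. The other 3 pairs had -0.04 to 0.24 there. Probe sets of 1 gene are measured on the same array, so they share its scaling.

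The fatty acid receptors and NRF1 were tested with limma across 14409 probe sets, with p-values adjusted by the Benjamini-Hochberg method at 0.05. The p-values measure the spread between single bulls. In S minus plain bulls, 68.1% of all tested probe sets passed (33.4% higher and 34.7% lower in S bulls). Of the 3 tested probe sets of PPARA, PPARD and NRF1, 0 passed. Those of PPARA and NRF1 were dim, with mean levels of 5.45 and 5.41 log2 units, just above the cutoff for testing of 5.39. That of PPARD was brighter, at 8.91. In high minus low IMF, limma called 0 of the 14409 probe sets (0%), where 1054 had an unadjusted p under 0.05, and the unmoderated test also called 0. The same 0% held for the IMF difference within S bulls, within plain bulls and for the difference between these, so the counts of members with 0 calls there say nothing particular about them.

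PPARA is the receptor that switches on fatty acid oxidation genes when it binds fatty acids. Its brighter probe set, Bt.12803.1.S1_at, had intensities of 30.9, 39.5, 47.1, 31.8 and 41.6 in high IMF S bulls and 38.5, 54.1, 51.9, 40.8 and 35.3 in low IMF S bulls. It had 34.1, 51.1, 47.8, 61.1 and 34.2 in high IMF plain bulls and 43.6, 24.7, 58.4, 48.9 and 61.9 in low IMF plain bulls. All 4 groups overlapped. The S minus plain difference was -0.15 (SE 0.15, 95% interval -0.47 to 0.17, limma adjusted p = 0.407), and the high minus low IMF difference was -0.11 (SE 0.15, interval -0.43 to 0.21, limma adjusted p = 0.881). Within S bulls the IMF difference was -0.20 (interval -0.65 to 0.25), and within plain bulls it was -0.03 (interval -0.48 to 0.43). The difference between these was -0.17 (SE 0.31, limma adjusted p = 0.932).

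The second PPARA probe set, Bt.18241.1.A1_at, was too dim to be tested and differed from the first. It ranged from 0.91 to 16.1 in S bulls and from 11.0 to 19.3 in plain bulls, and 9 of the 10 S bulls lay below the lowest plain bull. Its S minus plain difference was -1.04 on the log2 scale, and -0.81 without high IMF replicate 6, whose intensity was 0.91. The 2 PPARA probe sets therefore gave no common value for the title series.

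PPARD is the receptor of this family that is most abundant in skeletal muscle of rodents and humans and acts on many of the same genes as PPARA. Its bright probe set, Bt.13264.1.S1_at, had intensities of 500.1, 498, 515, 818 and 483 in high IMF S bulls and 492, 561, 508, 473 and 432 in low IMF S bulls. It had 427, 498, 347, 427 and 564 in high IMF plain bulls and 452, 578, 410, 275 and 523 in low IMF plain bulls. High IMF replicate 9 stood apart at 818, and the groups overlapped. The S minus plain difference was 0.24 (SE 0.13, 95% interval -0.03 to 0.51, a fold of 1.18, limma adjusted p = 0.105), and without low IMF replicate 2 it was 0.29 and passed, at limma adjusted p = 0.0497. Over all alternatives that adjusted p ran from 0.0497 to 0.247.

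The high minus low IMF difference of PPARD was 0.10 (SE 0.13, interval -0.17 to 0.37, limma adjusted p = 0.871). It was 0.16 within S bulls (interval -0.22 to 0.54), which became 0.02 without high IMF replicate 9, and 0.04 within plain bulls (interval -0.34 to 0.42). The difference between the series was 0.12 (SE 0.26, limma adjusted p = 0.947). The 2 dim PPARD probe sets ranged from 4.35 to 19.3 for Bt.22870.1.A1_at and from 0 to 6.77 for Bt.22870.1.S1_at, and were not tested.

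NRF1, the nuclear factor that binds promoters of respiratory chain genes and of TFAM, had 1 probe set, Bt.28473.1.S1_at. Its intensities were 32.9, 39.4, 47.5, 53.0 and 40.6 in high IMF S bulls and 43.5, 35.3, 26.5, 39.4 and 46.5 in low IMF S bulls. They were 62.3, 53.9, 34.2, 33.7 and 38.9 in high IMF plain bulls and 54.8, 44.2, 50.0, 28.4 and 44.6 in low IMF plain bulls. All groups overlapped, and the 4 group means, between 5.27 and 5.47 log2 units, were closer than the SD within any of them (0.26 to 0.39). The S minus plain difference was -0.12 (SE 0.14, interval -0.42 to 0.17, limma adjusted p = 0.460), and the high minus low IMF difference was 0.08 (SE 0.14, interval -0.22 to 0.37, limma adjusted p = 0.919). Within S bulls the IMF difference was 0.16 (interval -0.26 to 0.58), within plain bulls it was -0.01 (interval -0.42 to 0.41), and the difference between these was 0.17 (SE 0.28, limma adjusted p = 0.931).

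**Figure D2:**
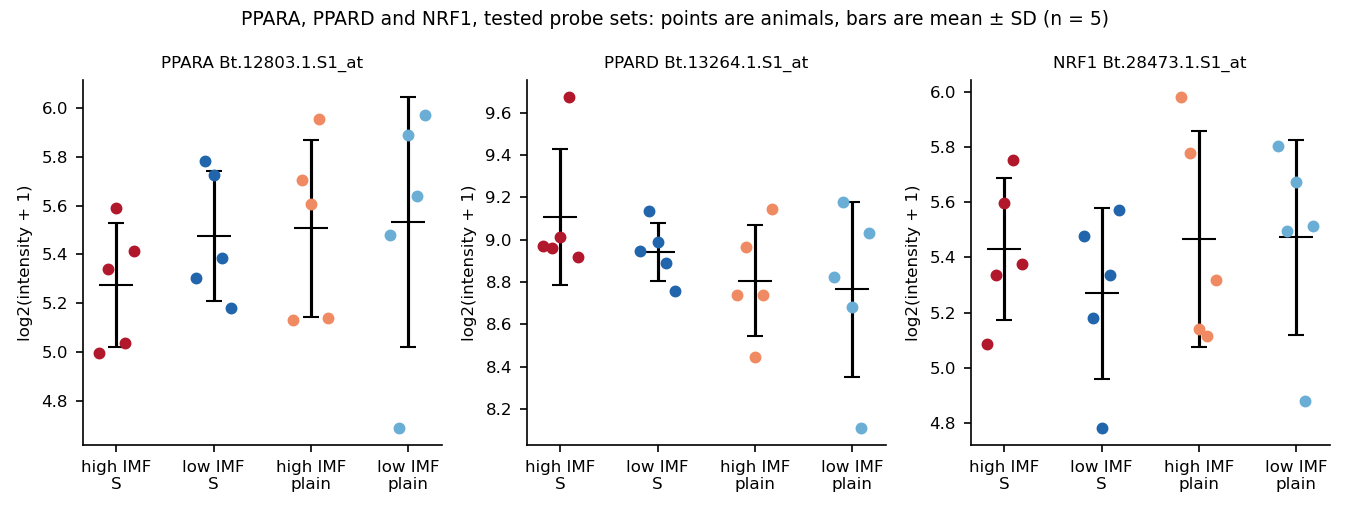
Log2(intensity + 1) of the tested PPARA, PPARD and NRF1 probe sets in each bull, by IMF group and title series. Points are bulls and the bars are the group mean and SD (n = 5); the groups overlap for all 3 genes, and 1 high IMF S bull stands high for PPARD at an intensity of 818.

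**Figure D3:**
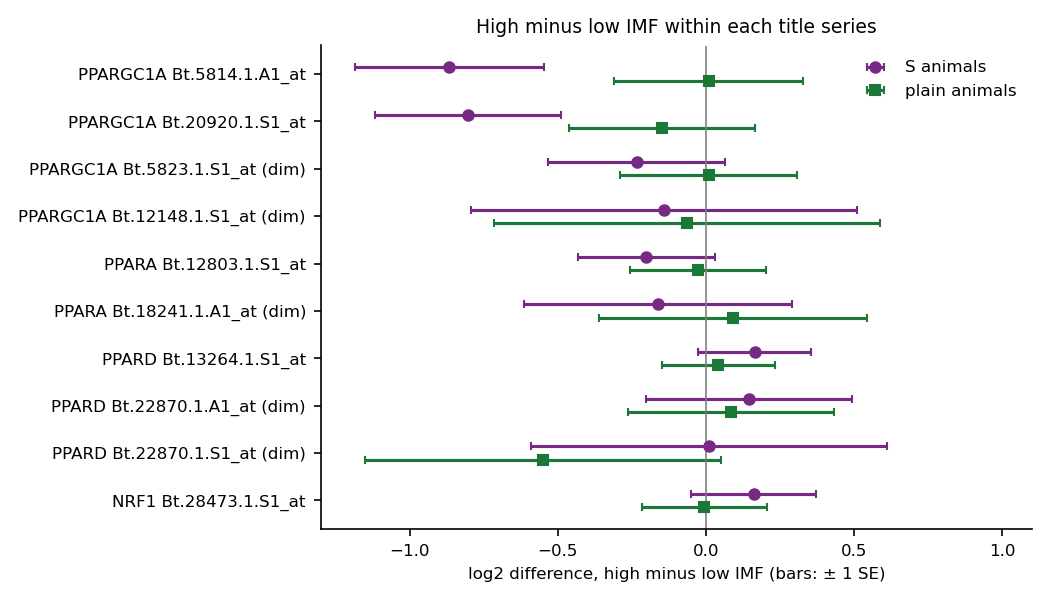
High minus low IMF difference in log2 units within S bulls and within plain bulls, for the 10 probe sets. Bars are the SE of each difference; the 2 brighter PPARGC1A probe sets lie at -0.87 and -0.80 within S bulls, and the tested probe sets of the partners lie between -0.20 and 0.16.

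Within groups, the deviations of PPARGC1A and PPARA were correlated over all bulls, more so in plain bulls than in S bulls. The call was lost without low IMF replicate 2, and also in other checks that kept this bull. Over the 20 bulls the deviations of PPARA had Pearson r = 0.68 with those of PPARGC1A (permutation within groups, p = 0.00495, adjusted over 3 pairs 0.0148). Spearman's rho was 0.52 (permutation p = 0.0294, adjusted 0.0650). Without the 2 bulls farthest from the median of PPARGC1A, high IMF replicate 6 and low IMF replicate 2, r was 0.44 (permutation p = 0.0976). Within the title series r was 0.34 in S bulls and 0.90 in plain bulls. Over all bulls but low IMF replicate 2 it was 0.51 and did not pass (adjusted permutation p = 0.127), while without high IMF replicate 6 alone it was 0.67 and passed (adjusted permutation p = 0.0337). With the other bulls left out one at a time it passed each time, and without the 2 arrays of lowest median intensity it was 0.64 (adjusted permutation p = 0.101).

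PPARD had r = -0.49 with PPARGC1A (permutation p = 0.0780, adjusted 0.117) and rho = -0.49 (permutation p = 0.0434, adjusted 0.0650). It did not pass, but passed without low IMF replicate 5, at r = -0.66 (adjusted permutation p = 0.0169), and without high IMF replicate 6, at r = -0.60 (adjusted permutation p = 0.0487). Without the 2 bulls farthest from the median r was -0.50 (permutation p = 0.0602), and it was -0.49 in S bulls and -0.51 in plain bulls. NRF1 had r = -0.08 (permutation p = 0.749, adjusted 0.749), rho = -0.12 (permutation p = 0.650, adjusted 0.650), and r = -0.27 without those 2 bulls. Within the title series it was 0.16 in S bulls and -0.25 in plain bulls. The median intensity of the array had r = 0.55 with the PPARGC1A deviations (permutation p = 0.0322, adjusted over 4 relations 0.129), 0.44 without the same bulls, with 0.82 in S bulls and 0.07 in plain bulls, and its part in the relations was not tested.

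**Figure D4:**
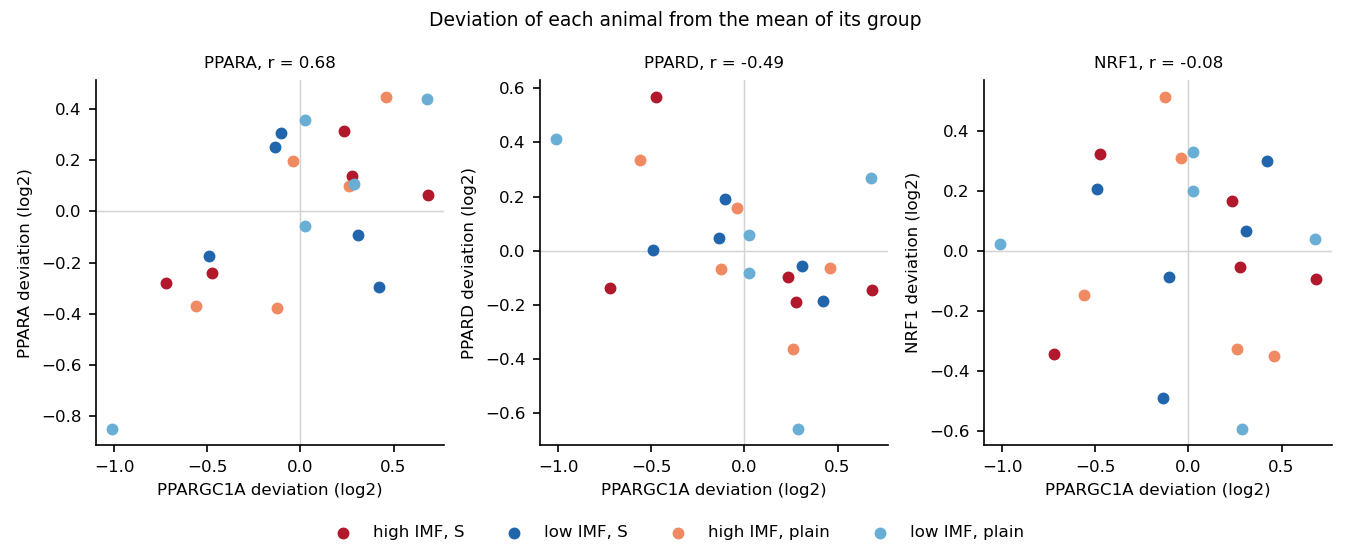
Deviation of PPARA, PPARD and NRF1 (vertical axes) from the group mean against that of PPARGC1A (horizontal axes), in log2 units. Each point is 1 of 20 bulls, marked by its group; r is 0.68 for PPARA, -0.49 for PPARD and -0.08 for NRF1.

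The genes around the coactivator were read from lists written from general knowledge, with 1 probe set per gene, and are described by counts and medians beside all 7016 tested genes. Of all genes, 70.0% passed in S minus plain bulls, 40.7% higher and 29.3% lower in S bulls, and the median difference was 0.11. In high minus low IMF 0% passed, the median difference was -0.02, and 0 genes passed in any list, so the IMF values below carry no call.

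Of 12 tested coactivator relatives and nuclear receptors, 8 were higher in S bulls, 1 was lower and 3 did not pass, with a median of 0.44. RXRB, a retinoid X receptor with which the PPARs pair on DNA, averaged 7.99 ± 0.22 in S bulls and 6.89 ± 0.15 in plain bulls (SD, n = 10 each), a difference of 1.11 (SE 0.09, limma adjusted p = 4.55e-09). NR1H2, an oxysterol receptor, rose by 0.60 in S bulls (SE 0.06, limma adjusted p = 7.14e-08). RXRG had the smallest p in the IMF comparison, with 6.81 ± 0.32 in high IMF and 6.66 ± 0.40 in low IMF bulls, a difference of 0.16 (SE 0.13, limma adjusted p = 0.795).

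Among 10 tested coregulators, 2 were higher and 5 lower in S bulls, with a median of -0.30. The methyltransferase PRMT1 was higher by 0.92 (SE 0.06, limma adjusted p = 3.05e-10) and the histone deacetylase HDAC3 by 0.55 (SE 0.06, limma adjusted p = 3.70e-07). TBL1XR1, a subunit of the corepressor complex that holds HDAC3, differed by -0.37 in high minus low IMF (SE 0.13, limma adjusted p = 0.671).

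Of 20 tested upstream signal genes, 7 were higher and 10 lower in S bulls, with a median of -0.49. PPP3R1, the regulatory subunit of the phosphatase calcineurin, averaged 6.98 ± 0.27 in S bulls and 8.64 ± 0.16 in plain bulls, a difference of -1.66 (SE 0.10, limma adjusted p = 2.13e-10). CAMK2D, a calcium-dependent kinase, differed by -1.07 (SE 0.09, limma adjusted p = 6.27e-09). MEF2A, a transcription factor of muscle genes, had an IMF difference of -0.32 (SE 0.11, limma adjusted p = 0.671), with -0.56 within S bulls and -0.07 within plain bulls.

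Of 14 tested genes of mitochondrial transcription and genome upkeep, 2 were higher and 7 lower in S bulls, with a median of -0.34. NFE2L2, a transcription factor of the oxidative stress response, differed by -1.05 (SE 0.09, limma adjusted p = 1.07e-08), and TFB1M, a methyltransferase of mitochondrial ribosomal RNA, by -0.54 (SE 0.06, limma adjusted p = 4.69e-07). NFE2L2 also had the smallest p of the list in the IMF comparison, at -0.21 (SE 0.09, limma adjusted p = 0.671). Within S bulls the IMF difference was below 0 for 14 of 14 genes of the list, with a median of -0.14, beside 67.0% of all genes with a median of -0.07, and 0 passed.

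Of 20 tested PPAR targets, 5 were higher and 8 lower in S bulls, with a median of -0.17. CD36, a fatty acid carrier of the cell surface, averaged 9.73 ± 0.22 in S bulls and 10.93 ± 0.35 in plain bulls, a difference of -1.20 (SE 0.13, limma adjusted p = 1.45e-07). ACADM, which oxidises medium-chain fatty acids, differed by -0.90 (SE 0.11, limma adjusted p = 6.95e-07). SLC25A20, the mitochondrial carnitine carrier, had an IMF difference of 0.13 (SE 0.06, limma adjusted p = 0.671).

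Of 25 tested PGC-1 and ERR targets, 8 were higher and 8 lower in S bulls, with a median of -0.05. SUCLA2, a subunit of succinyl-CoA ligase, differed by -1.09 (SE 0.11, limma adjusted p = 4.95e-08), and NDUFS1, a subunit of respiratory complex I, by -1.05 (SE 0.10, limma adjusted p = 3.72e-08). PRDX5, a peroxidase, had an IMF difference of 0.11 (SE 0.06, limma adjusted p = 0.688). The median IMF difference of these targets was -0.09 within S bulls, with 22 of 25 below 0, and -0.0015 within plain bulls. Over all genes the median was -0.07 within S bulls, with 67.0% below 0, and 0.02 within plain bulls.

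Of 15 tested genes of mitochondrial fusion, fission and mitophagy, 3 were higher and 7 lower in S bulls. YME1L1, an inner membrane protease, differed by -1.06 (SE 0.08, limma adjusted p = 1.41e-09), and FIS1, an outer membrane fission factor, by 0.93 (SE 0.07, limma adjusted p = 2.15e-09). OMA1, another inner membrane protease, had an IMF difference of -0.33 (SE 0.08, limma adjusted p = 0.653), with -0.33 within S bulls and -0.32 within plain bulls.

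Of 12 tested slow fibre genes, 0 were higher and 6 lower in S bulls, and of 8 tested fast fibre genes, 3 were higher and 1 lower. PLN, the inhibitor of the slow fibre calcium pump, averaged 9.63 ± 0.90 in S bulls and 10.91 ± 0.39 in plain bulls, a difference of -1.28 (SE 0.23, limma adjusted p = 6.29e-05), and that pump, ATP2A2, differed by -0.44 (SE 0.08, limma adjusted p = 6.32e-05). The IMF difference was below 0 for 11 of the 12 slow fibre genes, with a median of -0.14, beside 56.6% of all genes with a median of -0.02, and 0 passed. PLN had 9.89 ± 1.06 in high IMF and 10.64 ± 0.67 in low IMF bulls (SD, n = 10 each), a difference of -0.74 (SE 0.23, limma adjusted p = 0.671). Among fast fibre genes the calcium pump ATP2A1 differed by 0.63 (SE 0.08, limma adjusted p = 1.11e-06) and the Z-disc protein ACTN3 by 0.19 (SE 0.05, limma adjusted p = 0.00273). PFKM, the muscle phosphofructokinase, had an IMF difference of -0.05 (SE 0.06, limma adjusted p = 0.856). Without the 4 arrays with albumin above 2000, 2 fast fibre genes passed, against 4 with all arrays.

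The next values describe how the lists varied with PPARGC1A from bull to bull. In deviations from the group means, 23 of the 25 targets had a positive r with PPARGC1A, with a median of 0.59, beside 4259 of all 7015 other tested genes (60.7%) with a median of 0.12. SUCLA2 had r = 0.78 and NDUFS1 had r = 0.75. COX5B, a subunit of cytochrome c oxidase chosen after its value was seen, had the highest at 0.85, and the targets below 0 were PRDX5 at -0.01 and PERM1 at -0.02, chosen likewise. The median of the targets was 0.67 in S bulls, where all genes had 0.27, and 0.55 in plain bulls, where all genes had -0.02. Without the 2 arrays of lowest median intensity it was 0.49, beside -0.02 for all genes, and with each array centred on its median it was 0.32, beside -0.08. These r share the arrays and their scaling, and no test was made.

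In the same measure, PPAR targets had a median r of 0.28 with 12 of 20 positive, mitochondrial transcription and genome upkeep had 0.05 with 9 of 14, and the nuclear receptors had -0.26 with 3 of 12. The first 2 of these medians differed in sign between the title series. PPAR targets had -0.02 in S bulls and 0.35 in plain bulls, and mitochondrial transcription and genome upkeep had 0.33 and -0.24. All genes had 0.27 in S bulls and -0.02 in plain bulls. Fusion, fission and mitophagy genes had 0.44 with 13 of 15. Slow fibre genes had 0.50 with 10 of 12, which was 0.16 without the 2 arrays of lowest median intensity, 0.18 with arrays centred, 0.34 in plain bulls, and 0.70 with 12 of 12 positive in S bulls. Fast fibre genes had a median near 0 with 3 of 8 positive.

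**Figure D5:**
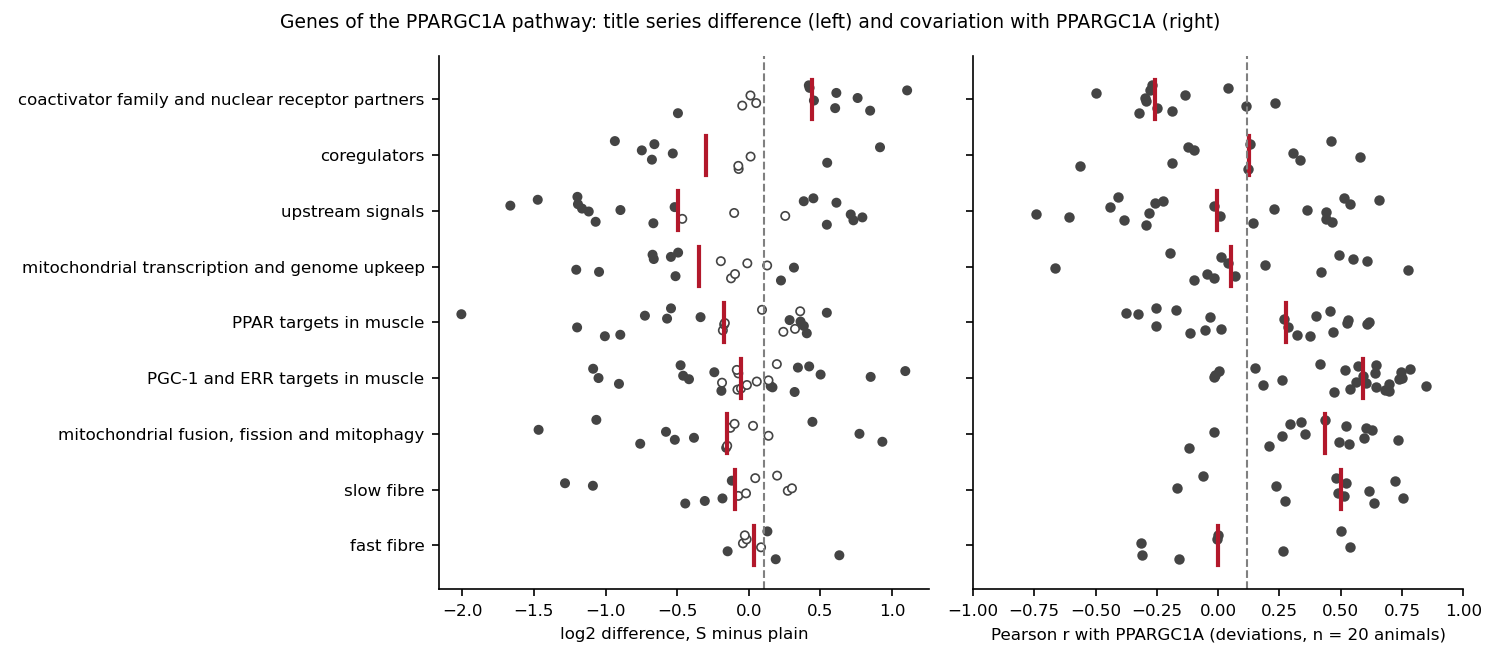
The left panel gives the S minus plain difference in log2 units of each tested gene of the 9 lists, and the right panel its Pearson r with PPARGC1A in deviations from the group means over 20 bulls. Points are genes (on the left filled where limma's adjusted p was under 0.05), red ticks are list medians and dashed lines are the medians over all genes; on the left medians run from -0.49 for upstream signals to 0.44 for nuclear receptors, and on the right PGC-1 and ERR targets have the highest, at 0.59.

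Over all 20 bulls, title series included, the genes with the pattern most like PPARGC1A by Pearson r of log2 values, among 7015, were HTATSF1 (0.93), ZCCHC17 (0.92), ELF2 (0.92), APOOL (0.92), NNT (0.92), EOGT (0.92), DUSP12 (0.91) and CBR4 (0.91). The most opposed were OS9 (-0.87), DDOST (-0.87), RUVBL2 (-0.85) and HDAC5 (-0.85). In deviations from the group means the same 8 genes had r of 0.74 to 0.84 and the same 4 had -0.74 to -0.71. The genes were picked as the extremes of the first r, so a smaller r in the second measure says nothing about the group differences.

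Markers of muscle and of other cell types differed in level between the groups. For the 7 skeletal muscle markers the mean log2 level was 13.80 ± 0.09 in high IMF S bulls and 13.86 ± 0.04 in low IMF S bulls. In plain bulls it was 13.74 ± 0.04 with high IMF and 13.72 ± 0.02 with low IMF. For 9 liver transcripts it was 6.86 ± 1.57 and 5.59 ± 0.15 in high and low IMF S bulls. In high and low IMF plain bulls it was 5.28 ± 0.23 and 6.06 ± 1.80 (SD, n = 5 each). The summed intensity of 7 adipocyte markers ran from 1992 to 20905 in high IMF S bulls and from 722 to 9438 in low IMF S bulls. It ran from 1223 to 4517 in high IMF plain bulls and from 338 to 2242 in low IMF plain bulls, and 0 of the 7 markers were at 0 throughout a group. The mean log2 level of 4 macrophage markers was 6.71 ± 0.15 in high IMF S bulls and 6.70 ± 0.14 in low IMF S bulls. It was 5.94 ± 0.14 in high IMF plain bulls and 6.16 ± 0.38 in low IMF plain bulls (SD, n = 5 each). That of 6 fibroblast and matrix markers was 10.37 ± 0.20 in high IMF S bulls, 9.98 ± 0.31 in low IMF S bulls, 9.89 ± 0.40 in high IMF plain bulls and 9.86 ± 0.78 in low IMF plain bulls. That of 7 endothelial markers was 6.70 ± 0.20 in high IMF S bulls, 6.94 ± 0.25 in low IMF S bulls, 6.56 ± 0.17 in high IMF plain bulls and 6.57 ± 0.19 in low IMF plain bulls. That of 5 red blood cell markers was 4.94 ± 0.29 in high IMF S bulls and 5.14 ± 0.43 in low IMF S bulls. It was 4.49 ± 0.42 in high IMF plain bulls and 4.18 ± 0.31 in low IMF plain bulls. Both S means lay above both plain means for the skeletal muscle, macrophage, fibroblast and matrix, endothelial and red blood cell markers. Single fibroblast and endothelial markers went both ways. S minus plain was 1.53 for COL1A1, 0.69 for COL1A2 and 0.14 for COL3A1, but -0.40 for DCN, -0.10 for LUM and -0.05 for PDGFRA. It was 1.07 for EGFL7, 0.39 for CDH5, 0.34 for PECAM1, 0.29 for VWF and 0.01 for KDR, but -0.20 for TEK and -0.17 for ERG. Among all tested genes, 40.7% were higher and 29.3% lower in S bulls. The adipocyte level had r = -0.29 with PPARGC1A in deviations from the group means (permutation p = 0.248), the liver transcripts r = 0.17 (permutation p = 0.627) and the slow fibre level r = 0.43 (permutation p = 0.0880, adjusted 0.176). The part of these cell types in the PPARGC1A differences was not tested.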

How the data were processed

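Per the submitters' processing notes, GCOS 1.1.1 and Affymetrix Expression Console 1.1 were used on the arrays; how probes were summarised is not stated in the labels. The authors deposited linear intensities per probe set, and their normalization was kept. Of 24128 probe sets, 112 array controls were removed, values were taken as log2(intensity + 1), which understates changes of dim probe sets, and the dimmest 40% by mean were left out, so 14409 were tested. Genes were named from the platform annotation, for probe sets with 1 symbol (13318). limma 3.58.1 in R 4.3.3 fitted 4 group means of IMF by title series, two-sided, with Benjamini-Hochberg adjustment over all tested probe sets. The series text names a paired test, but the labels pair no animals. Correlations used deviations from the group means and two-sided permutation within groups with 100000 resamples (Python 3.11.15, numpy 2.4.6, scipy 1.17.1); 5 pairs were planned, and 3 could be computed. PPARGC1A got no group test. The members and lists were chosen with earlier results of these data known. Named list genes were the 2 with the smallest p for title series and the 1 for IMF; the 8 genes most like PPARGC1A and the 4 most opposed were named by Pearson r. Alternatives were another pseudocount (16), filter (60% or none) and scaling, no moderation, and arrays left out. The code was tested on simulated data. With 20 arrays, their number limits the precision.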

Additional observations from a re-analysis of the deposited data

Results flagged for a closer look

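In 3 of the 40 groups of 5 bulls examined (10 probe sets in 4 groups), 1 bull stood apart from the other 4 by more than 0.71 of the range of its group, a gap that chance gives in about 1 of 20 groups. On the dim PPARA probe set Bt.18241.1.A1_at, high IMF replicate 6 lay below the other high IMF S bulls with an intensity of 0.91, a gap of 0.749 of the range. On the bright PPARD probe set Bt.13264.1.S1_at, high IMF replicate 9 lay above the other high IMF S bulls at 818, a gap of 0.877. On the dim PPARD probe set Bt.22870.1.S1_at, high IMF replicate 4 stood apart among the high IMF plain bulls at 2.26, a gap of 0.721. High IMF replicates 6 and 9 were also the arrays with the lowest median intensity, and the part of that in these gaps was not tested.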

How the results depend on the processing

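No paired analysis was possible because the labels pair no animals. The count of probe sets passing in S minus plain bulls was 9818; it was 12499 with no filter, 7000 with the dimmest 60% left out, and 8733 without the 4 arrays with albumin above 2000. Leaving out 1 bull at a time it ran from 9572 to 9779. The IMF count was 0 and ran from 0 to 1 when 1 bull was left out, as did the count within plain bulls; the 1 call, without high IMF replicate 4, was Bt.29960.1.S1_at, a probe set with no gene name here, chosen after its value was seen (-0.77, limma adjusted p = 0.00463, and -1.01, limma adjusted p = 0.0185). The correlation of PPARGC1A with PPARA was 0.62 with arrays centred (adjusted permutation p = 0.0523) and 0.64 without the 2 arrays of lowest median intensity (adjusted permutation p = 0.101), and 0.51 to 0.78 with 1 bull left out. That with PPARD ran from -0.66 to -0.37 and that with NRF1 from -0.225 to -0.00237.

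Directions turned in small differences that did not pass. The NRF1 difference within plain bulls was 0.017 with arrays centred, 0.029 with quantile scaling and 0.045 without the albumin arrays; the PPARA difference within plain bulls was 0.0027 with quantile scaling and 0.063 without the albumin arrays; and the PPARD difference between series was -0.021 without the 2 dim arrays. With 1 bull left out, NRF1 within plain bulls ran from -0.154 to 0.0825, PPARA within plain bulls from -0.239 to 0.0833, PPARA between series from -0.284 to 0.0378, PPARD within plain bulls from -0.123 to 0.145 and PPARD between series from -0.0201 to 0.287. The causes were not tested. PPARA and NRF1 were not tested with the dimmest 60% left out.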

Other observations

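Ranked by deviations from the 4 group means, a measure added after the data were seen, the genes most like PPARGC1A were TPM2 (0.88), a tropomyosin, NDUFA4 (0.87), a subunit associated with cytochrome c oxidase, GATC (0.85), MLF1 (0.85), COX5B (0.85) and APOOL (0.84). The most opposed were AP3D1 (-0.82), MAP2K3 (-0.78), SNRPA1 (-0.78) and SF3A2 (-0.78). APOOL was also named among the 8 most alike over all 20 bulls. These are values over 20 bulls that share arrays and scaling, and no test was made.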
